A study of Mus musculus with 6 samples.

Results

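The genes described here are the receptors that carry the symbol Gpr followed by a number, a name given to G protein-coupled receptors that were found by sequence before a ligand was known. The deposited table of right ventricular (RV) tissue listed 617 genes, and 4 of them, Gpr22, Gpr27, Gpr176 and Gpr39, met this rule on the symbol. The annotation holds 69 genes with such a symbol, and the other Gpr genes were not analysed here. Wild-type (WT) C57/BL6J mice had surgery on postnatal day 1 and their RV was collected on postnatal day 7, with 3 libraries after pulmonary artery banding (PAB) and 3 after the sham operation. PAB narrows the pulmonary artery, so that the RV has to pump against a higher pressure. The sham mice had the same surgery without the band. Tissue was taken as a whole, no cell type was isolated, and no source used here says whether a library came from 1 mouse or several, so p-values cover only the spread between these libraries, which may be technical.

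G protein-coupled receptors span the cell membrane several times and pass a signal from outside the cell to a G protein on its inner side. A receptor is called an orphan when no natural ligand is generally accepted. All 4 receptors belong to class A, the rhodopsin-like receptors. Gpr22 is known for its high expression in heart muscle and brain and for coupling to inhibitory G proteins. Gpr27 belongs with Gpr85 and Gpr173 to a small family of receptors that are highly conserved and enriched in brain. Gpr176 is known from the circadian pacemaker of the hypothalamus, where it acts through the G protein Gz. Gpr39 is a relative of the ghrelin receptor that responds to zinc ions.

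In these libraries Gpr176 and Gpr39 were higher in PAB and Gpr22 and Gpr27 were lower. The mean normalised read count of Gpr39 was 5.60 times and that of Gpr176 3.20 times as high in PAB as in sham. The sham mean of Gpr22 was 2.81 times and that of Gpr27 2.36 times as high as the PAB mean. Among these 4 genes, Gpr22 and Gpr27 had the highest RNA levels per kilobase in sham, whereas in PAB the 4 lay closer together. The table holds no gene whose deposited fold change between these same groups was under 1 in size on the log2 scale, so every listed gene had to differ. The directions and p-values below are therefore descriptions and no independent test.

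Coordinates of all 4 genes in the deposited table were the same as in the GENCODE annotation of GRCm38. Gpr22 (ENSMUSG00000044067) lies on chromosome 12 from 31706867 to 31713947 on the minus strand, inside the gene Cog5 but on the opposite strand, and shares 0 exonic bases with it. Gpr27 (ENSMUSG00000072875) lies on chromosome 6 from 99692679 to 99695066 on the plus strand and consists of a single exon with 1137 coding bases. Gpr176 (ENSMUSG00000040133) lies on chromosome 2 from 118277110 to 118373419 on the minus strand, with 3 exons and 1545 coding bases. At its 3' end, 133 of its 3899 exonic bases (3.41%) lie in exons of Gm29232, a non-coding gene on the same strand. Gpr39 (ENSMUSG00000026343) lies on chromosome 1 from 125676995 to 125873862 on the plus strand, with 2 exons and 1368 coding bases in its protein-coding transcript. Exons of Lypd1, on the opposite strand, cover 1202 of its 3015 exonic bases (39.9%). No source used here states that reads were counted by strand, so reads of Gpr39 and Lypd1 could not be told apart over that stretch, and the values of Gpr39 are uncertain for this reason. Lypd1 was not among the listed genes. Of the stretches of 50 bases in the longest transcript, 43.7% of those of Gpr39 recurred in Lypd1, 2.21% of those of Gpr176 in Gm29232, and 0 of those of Gpr22 and Gpr27 in any other gene. None of the 4 genes had another listed gene within 1000000 bases.

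The start regions of 3 of the genes are held by RefSeq for GRCm38.p6 and are shown because 2 of them belong to the receptors that were higher in PAB and the other to a receptor that was lower. Each covers 250 bases before and 50 bases after the start site, 5' to 3' on the strand of the gene. Capitals mark a match on either strand to 1 of 5 short motifs. The TATA box was searched as TATAAA. The core of the MCAT element, a motif of muscle genes, was searched as CATTCC. For GATA factors the letters were GATAA. The core of the cyclic AMP response element was searched as TGACG. The GC box, to which Sp1 binds, was searched as GGGCGG. Gpr22 is read from chr12:31713834-31714133 (minus strand), Gpr176 from chr2:118373370-118373669 (minus strand) and Gpr39 from chr1:125676746-125677045 (plus strand).
Gpr22: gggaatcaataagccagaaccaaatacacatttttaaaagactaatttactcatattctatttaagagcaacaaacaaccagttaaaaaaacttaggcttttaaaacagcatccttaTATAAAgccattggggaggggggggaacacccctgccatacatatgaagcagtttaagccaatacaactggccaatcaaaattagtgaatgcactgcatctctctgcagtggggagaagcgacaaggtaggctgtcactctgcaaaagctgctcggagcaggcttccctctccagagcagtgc
Gpr176: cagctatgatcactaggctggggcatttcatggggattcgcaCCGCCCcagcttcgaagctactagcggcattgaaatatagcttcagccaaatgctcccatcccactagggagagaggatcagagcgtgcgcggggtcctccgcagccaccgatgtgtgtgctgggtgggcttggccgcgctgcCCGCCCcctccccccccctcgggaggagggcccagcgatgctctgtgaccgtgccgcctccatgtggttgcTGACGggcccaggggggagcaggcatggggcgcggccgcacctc
Gpr39: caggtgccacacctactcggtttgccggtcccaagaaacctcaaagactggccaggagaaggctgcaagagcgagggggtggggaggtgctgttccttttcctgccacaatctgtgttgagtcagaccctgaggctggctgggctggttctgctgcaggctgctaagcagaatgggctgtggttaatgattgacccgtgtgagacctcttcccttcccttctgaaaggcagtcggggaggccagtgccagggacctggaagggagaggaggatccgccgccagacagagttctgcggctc

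The start regions of the 2 receptors that were higher in PAB did not share a match. Gpr22 held the TATA box once, at position -133, counted from the start site to the first letter of the match, a motif found in 13.6% of 32851 start regions of this length. Gpr176 held the GC box 2 times on the reverse strand, at -208 and -65, and the cyclic AMP core once, at position 6, motifs that occur in 35.7% and 20.8% of start regions. Gpr39 held 0 matches to the 5 motifs, of which the MCAT core occurs in 14.7% and the GATA motif in 25.4% of start regions, and the motifs do not overlap one another in the sequences shown. G and C made up 43.0% of the bases for Gpr22, 59.7% for Gpr39 and 66.3% for Gpr176, against a median of 52.7%. The CpG dinucleotide occurred 2 times in Gpr22, 8 times in Gpr39 and 20 times in Gpr176, against a median of 7. A match is a description of the letters and not evidence of a bound factor.

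Each deposited value is a read count after division by the size factor of its library, and is called a normalised read count here. Size factors, the relative depths of the libraries, ranged from 0.939 to 1.07, and the total depth is unknown because the table holds a selection of genes. PAB and sham were compared with limma on log2(normalised read count + 1), a scale that understates the change of low genes, and the adjusted p-values are Benjamini-Hochberg values over all 617 listed genes. At an adjusted p-value under 0.05 all 4 Gpr genes were called, 2 higher and 2 lower, as were 100% of the listed genes, 47% higher and 53% lower. In all 4 genes the PAB libraries lay wholly above or wholly below the sham libraries, as in 97.1% of all listed genes. The members therefore did not stand apart from the other listed genes in either count.

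Gpr22 was lower in PAB and varied more between libraries than Gpr27. Its values were 181.6, 147.8 and 234.9 in sham replicates 1, 2 and 3 and 76.7, 35.7 and 88.4 in PAB replicates 1, 2 and 3. All 3 PAB libraries lay below all 3 sham libraries, by at least 59.3, and PAB replicate 2 was the lowest. The mean went from 188.1 ± 43.9 in sham to 66.9 ± 27.7 in PAB (SD, n = 3 each). PAB differed from sham by a log2 fold change of -1.55 (standard error 0.37, 95% confidence interval -2.36 to -0.74, limma, adjusted p = 0.00333), which ranked 137 of the 327 genes that were lower in PAB. Without PAB replicate 2 the log2 fold change was -1.16, the smallest of the 6 values with a library left out.

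Gpr27 varied least among the sham libraries. It had 114.4, 100.1 and 108.0 normalised reads in sham replicates 1 to 3 and 35.1, 45.6 and 55.6 in PAB replicates 1 to 3. The coefficient of variation was 6.70% in sham and 22.5% in PAB. The mean fell from 107.5 ± 7.20 (SD, n = 3) to 45.5 ± 10.2 (SD, n = 3), and the groups were parted by 44.4 normalised reads. The log2 fold change was -1.25 (standard error 0.29, 95% confidence interval -1.89 to -0.60, limma, adjusted p = 0.00324), which ranked 229 of 327. Gpr27 was the member whose call was lost when each library was scaled by its median ratio, with a log2 fold change of -0.66 (adjusted p = 0.0533 in limma). The ratios were taken over the genes of the table, which all had to differ, so they do not show which scaling is right.

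Gpr176 rose in PAB. Sham replicates 1 to 3 had 37.8, 32.7 and 28.3 normalised reads, and PAB replicates 1 to 3 had 143.8, 102.1 and 70.5. The lowest PAB library exceeded the highest sham library by 32.7, and the PAB libraries were further apart from one another than the sham libraries. The mean went from 33.0 ± 4.76 in sham to 105.5 ± 36.7 in PAB (SD, n = 3 each). PAB differed from sham by a log2 fold change of 1.60 (standard error 0.34, 95% confidence interval 0.85 to 2.35, limma, adjusted p = 0.0021), which ranked 121 of the 290 genes that were higher in PAB.

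Gpr39 had the largest fold change of the 4 and rested on the fewest reads. It had 3.78, 6.55 and 4.20 normalised reads in sham replicates 1 to 3 and 28.8, 32.7 and 19.9 in PAB replicates 1 to 3. By the step between the values of a library, these would be 4, 7 and 4 reads in sham and 27, 33 and 20 reads in PAB. The table does not state read numbers, so these are inferred, although every value lay within 0.01 of a whole multiple of that step. On that reading, the 95% exact Poisson interval of 4 reads is 1.09 to 10.2 and that of 20 reads 12.2 to 30.9, for counting error only. The highest sham library and the lowest PAB library were still 13.3 normalised reads apart. The mean was 4.84 ± 1.49 in sham and 27.1 ± 6.58 in PAB (SD, n = 3 each). Gpr39 rose by a log2 fold change of 2.27 (standard error 0.49, 95% confidence interval 1.18 to 3.36, limma, adjusted p = 0.00225), which ranked 54 of 290. With a pseudocount of 0.1 it was 2.47. Its mean over the 6 libraries, 16.0, was higher than that of only 5.51% of the listed genes.

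**Figure D1:**
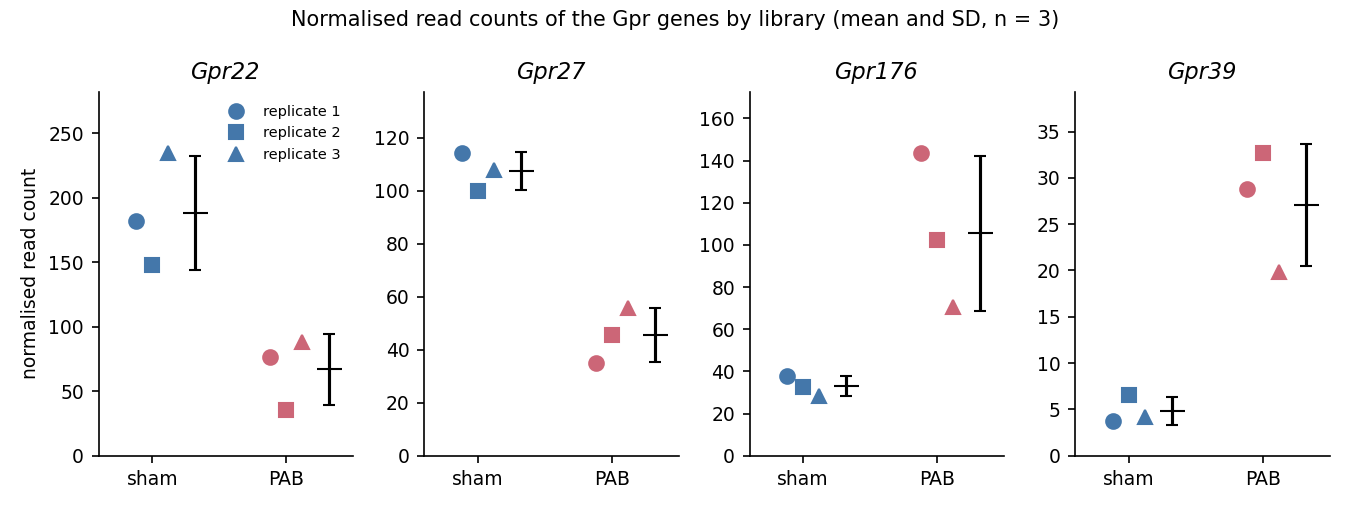
Normalised read counts (vertical axes, each from 0) of Gpr22, Gpr27, Gpr176 and Gpr39 in the 3 sham (blue) and 3 PAB (red) libraries, with circles, squares and triangles for replicates 1, 2 and 3 and the mean with its SD (n = 3) in black. In each gene the groups do not overlap, with Gpr22 and Gpr27 lower and Gpr176 and Gpr39 higher in PAB.

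Median-ratio scaling, which replaces the size factors, raised the PAB libraries relative to sham by 0.594 (log2). The log2 fold changes of Gpr22, Gpr27, Gpr176 and Gpr39 were then -0.96, -0.66, 2.18 and 2.80, so each kept its direction, and 3 of the 4 were called against 77.3% of the listed genes. The number of genes called higher in PAB was 290 with either scaling, whereas the number called lower went from 327 to 187, so the share of higher genes among the calls went from 47.0% to 60.8%. The median log2 fold change of all listed genes was -1.03 with the size factors and -0.44 after the scaling. Median-ratio scaling takes most genes to be unchanged, whereas every gene of the table had to differ and more were lower than higher. The shift therefore depends on the selection, and calls lost with it do not show that the size factors are wrong.

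Levels of different genes were compared per kilobase of the deposited gene length. In sham, Gpr27 and Gpr22 led with 45.0 ± 3.01 and 40.8 ± 9.54 normalised reads per kilobase (SD, n = 3), and their ranges overlapped. Gpr176 followed with 8.45 ± 1.22 and Gpr39 with 1.61 ± 0.494 (SD, n = 3), each apart from its neighbours in every sham library. In PAB the order of the mean levels per kilobase was Gpr176 (27.1 ± 9.42), Gpr27 (19.0 ± 4.29), Gpr22 (14.5 ± 6.01) and Gpr39 (8.99 ± 2.18). There, the ranges of all neighbours in the order overlapped.

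**Figure D2:**
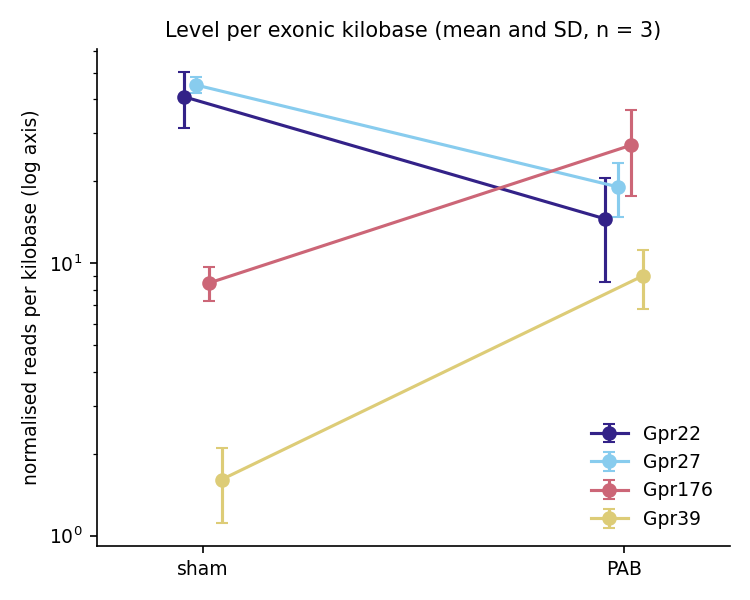
Mean level in normalised reads per kilobase (log axis) of each receptor in sham and PAB, with SD over 3 libraries. Gpr22 and Gpr27 lie at about the same level in sham (40.8 and 45.0), while in PAB Gpr176 has the highest mean (27.1).

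The mix of the receptors within a library does not depend on the scaling of the libraries. Gpr176 made up 9.87%, 9.93% and 6.93% of the summed level per kilobase in sham replicates 1 to 3 and 47.4%, 41.0% and 26.9% in PAB replicates 1 to 3. Gpr39 made up 1.28% to 2.57% in sham and 9.81% to 17.0% in PAB. Gpr22 made up 37.9% to 48.6% of the sum in sham and 12.1% to 28.6% in PAB. Gpr27 was the leading receptor in sham replicates 1 and 2 and in PAB replicate 3, Gpr22 in sham replicate 3, and Gpr176 in PAB replicates 1 and 2. PAB replicate 3 thus lay nearest to the sham mix. The ratio of Gpr176 to Gpr22 reads was 0.208, 0.222 and 0.121 in sham replicates 1 to 3 and 1.88, 2.86 and 0.798 in PAB replicates 1 to 3. That Gpr176 gained on Gpr22 follows from their opposite directions and was not tested.

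**Figure D3:**
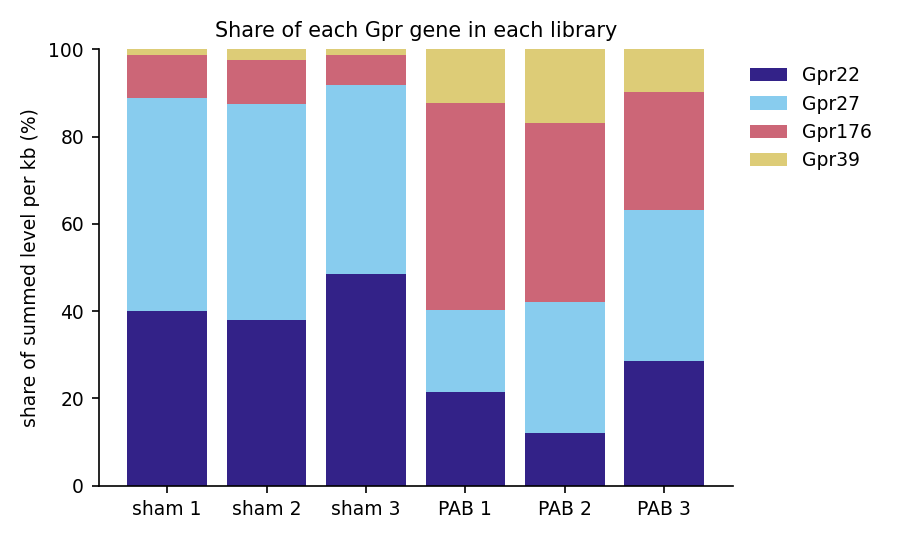
Share of each receptor (stacked bars, in percent) in the summed level per kilobase of the 4 receptors in each of the 6 libraries. Gpr176 goes from 6.93% to 9.93% in the sham libraries to 26.9% to 47.4% in the PAB libraries, and PAB replicate 3 is nearest to sham.

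Receptors that moved the same way were compared with each other by the log2 of their ratio of normalised reads within a library, without a pseudocount. For Gpr22 over Gpr27 it was 0.78 ± 0.30 (SD, n = 3) in sham and 0.48 ± 0.76 (SD, n = 3) in PAB. The ratio was -0.35 in PAB replicate 2 against 1.13 and 0.67 in PAB replicates 1 and 3, so the libraries of PAB spread over more than the difference of -0.30 between the groups. For Gpr39 over Gpr176 it was -2.80 ± 0.50 (SD, n = 3) in sham and -1.93 ± 0.35 (SD, n = 3) in PAB. The groups differed by 0.87. The two-sided exact permutation test gave p = 0.9 for the first pair and p = 0.2 for the second, adjusted over 2 pairs to 0.9 and 0.4. With 3 libraries against 3, the smallest p that this test allows is 0.1, so neither pair could have passed 0.05 and the test does not show that the receptors of a pair moved alike.

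The PAB libraries differed among themselves, and the members followed this to unequal extents. Nppa, the gene of the atrial natriuretic peptide and a marker of the loaded ventricle, had 21964, 9218 and 4995 normalised reads in PAB replicates 1, 2 and 3. Gm13054 on the other strand shares 61.5% of its exonic bases, so its values are uncertain. Gpr176 had the same order of the PAB libraries as Nppa, as did 199 of the 290 genes that were higher in PAB (68.6%). Gpr27 had the opposite order, as did 137 of the 327 genes that were lower (41.9%). Gpr39, highest in PAB replicate 2, and Gpr22, lowest in PAB replicate 2, had neither. Vwf, the endothelial marker von Willebrand factor, had 4792, 3251 and 1637 normalised reads in PAB replicates 1 to 3, the order of Gpr176. Its part in the differences of the receptors was not tested.

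**Figure D4:**
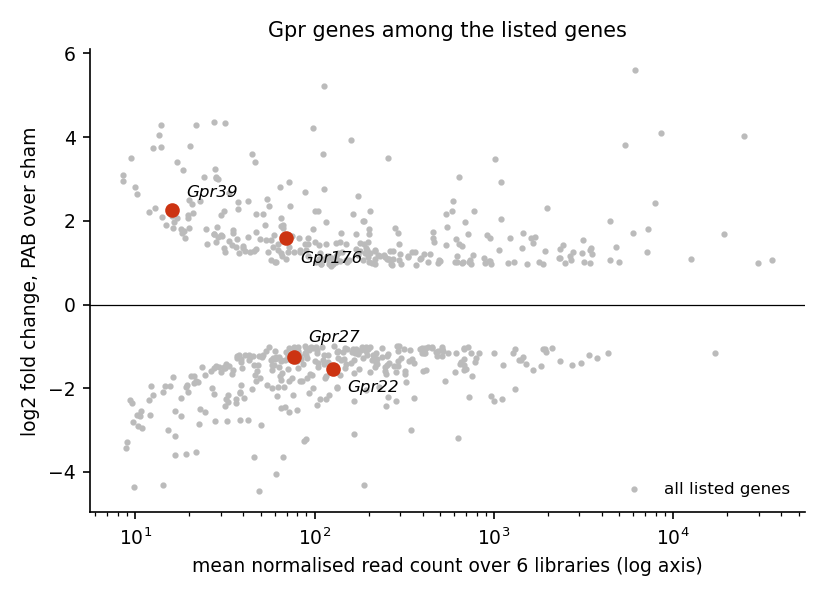
Log2 fold change of PAB over sham against the mean normalised read count over 6 libraries (log axis) for the 617 listed genes (grey) and the 4 Gpr genes (red). The empty band around 0 is the limit of the listing, and Gpr39 sits at the low end of the counts with a mean of 16.0.

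In bulk tissue, fewer cells of a type and less RNA per cell cannot be told apart. Of 10 markers of cardiomyocytes, Pln, the gene of phospholamban, was the 1 that was listed, and it fell from 23450 ± 3120 to 10598 ± 1718 normalised reads (SD, n = 3, log2 fold change -1.15, adjusted p = 0.003 in limma). With median-ratio scaling its call was lost as well, at -0.56. Genes on the other strand share 64.7% of its exonic bases, so its values are uncertain. Of 10 markers of neurons, Dbh, which encodes the enzyme that makes noradrenaline, was the 1 listed. It had 122.0, 150.6 and 99.6 normalised reads in the sham libraries and 8.52, 5.95 and 13.9 in PAB, every PAB library below every sham library. The listed fibroblast marker Dpt, 1 of 10, was lower (log2 fold change -1.21). Vwf, 1 of 8 endothelial markers, and Cnn1, 1 of 6 markers of smooth muscle and pericytes, were higher (1.11 and 1.84). The call of Dpt was also lost with median-ratio scaling (-0.61). Of 7 atrial markers, Nppa was the 1 listed, and it was higher by a log2 fold change of 5.60. None of 6 markers of glia, 8 of macrophages and other leukocytes, 4 of red cells and 4 of the epicardium was listed. Outside these lists, C1qa, a complement gene expressed by macrophages that is named here after its values were seen, was lower in PAB. It had 669.7 ± 29.0 normalised reads in sham and 309.8 ± 38.0 in PAB (SD, n = 3, log2 fold change -1.12). Its value with median-ratio scaling is not reported here. As the table is a selection, the labelled tissue could be checked against no fuller marker list, and the part of cell composition in the changes of the receptors was not tested.

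Other G protein-coupled receptors were listed for 13 genes, of which 4 were higher and 9 lower in PAB, against 47% and 53% of all listed genes, with a median log2 fold change of -1.41 against -1.03 over all listed genes. The 4 Gpr genes were split evenly, and their median of 0.18 lies between the higher and the lower ones, where no gene was listed. As the listing leaves out small changes, these medians depend on the numbers in each direction and are no typical change. Of 232 annotated class A receptors with a known ligand, 10 were listed, 4 higher and 6 lower. The higher ones were the atypical chemokine receptors Ackr2 and Ackr4, the thrombin receptor F2r and the leukotriene receptor Cysltr1, with log2 fold changes of 1.45, 1.35, 1.12 and 1.30. F2r had 1464 ± 316 normalised reads in sham and 3228 ± 1026 in PAB (SD, n = 3). The lower ones included Adra1b, an adrenergic receptor for noradrenaline, at 630.8 ± 221 in sham and 210.5 ± 62.2 in PAB (SD, n = 3, log2 fold change -1.56, limma, adjusted p = 0.00161). Lgr6, a receptor of R-spondins, fell by 1.35 on the log2 scale, Lpar3, a receptor of lysophosphatidic acid, by 1.33 and Opn4, the photopigment melanopsin, by 1.55. The dopamine receptor Drd2 and the angiotensin-(1-7) receptor Mas1 were lower by log2 fold changes of -4.05 and -2.54, with PAB values of at most 14.9 and 4.96 normalised reads. The value of Drd2 was -3.46 without PAB replicate 2 and -4.67 without PAB replicate 3. With median-ratio scaling 8 of these 10 were called, against 77.3% of all listed genes, and the calls of Lpar3 and Opn4 were lost.

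Of 110 annotated receptors of class B, class C, the frizzled and the adhesion families, 3 were listed and all 3 were lower, against 53% of all listed genes. They were Crhr2, a receptor of the urocortins, with a log2 fold change of -1.58, and the adhesion receptors Adgrd1 and Celsr3 with -1.41 and -1.87. Crhr2 had 560.8, 504.1 and 366.0 normalised reads in sham replicates 1 to 3 and 133.1, 140.8 and 204.6 in PAB replicates 1 to 3, without overlap.

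Downstream of the receptors, 1 of 34 annotated G protein subunits was listed. Gna14, a subunit of the Gq family, had 1.89, 6.55 and 7.34 normalised reads in sham and 57.5, 10.9 and 14.9 in PAB, which gave 1.98 as the log2 fold change (adjusted p = 0.0195 in limma). PAB replicate 1 held most of these reads, and without it the log2 fold change was 1.28 with an adjusted p of 0.0996 in limma. Without sham replicate 1 the call was lost as well (1.49, adjusted p = 0.0738 in limma).

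Among regulators and effectors of G proteins, 7 of 87 annotated genes were listed, 2 higher and 5 lower, with a median log2 fold change of -1.31. The RGS proteins, which switch G proteins off, were lower in all 3 listed cases, with -1.31 for Rgs2, -2.03 for Rgs6 and -3.58 for Rgs7, against 53% of all listed genes. The value of Rgs7 rested on 0, 1.98 and 5.96 normalised reads in PAB replicates 1 to 3, and it was -2.85 without PAB replicate 1, -4.25 without PAB replicate 3 and -4.88 with a pseudocount of 0.1. Rgs6 had 317.8, 331.1 and 280.0 normalised reads in sham replicates 1 to 3 and 60.7, 60.5 and 113.2 in PAB replicates 1 to 3. The receptor partners Ramp1 and Ramp3, which set the ligand preference of the calcitonin receptor family, moved in opposite directions. Ramp1 fell from 582.3 ± 19.9 to 134.8 ± 72.2 normalised reads (SD, n = 3, log2 fold change -2.23, limma, adjusted p = 0.000639). Ramp3 rose from 76.0 ± 17.8 to 263.4 ± 116 (SD, n = 3, log2 fold change 1.69, limma, adjusted p = 0.00257). Adcy2, an adenylyl cyclase, was higher by a log2 fold change of 2.28, and Gprasp2, which takes part in the sorting of receptors after uptake, was lower by -1.28. The call of Rgs2 was lost with median-ratio scaling, at a log2 fold change of -0.72.

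**Figure D5:**
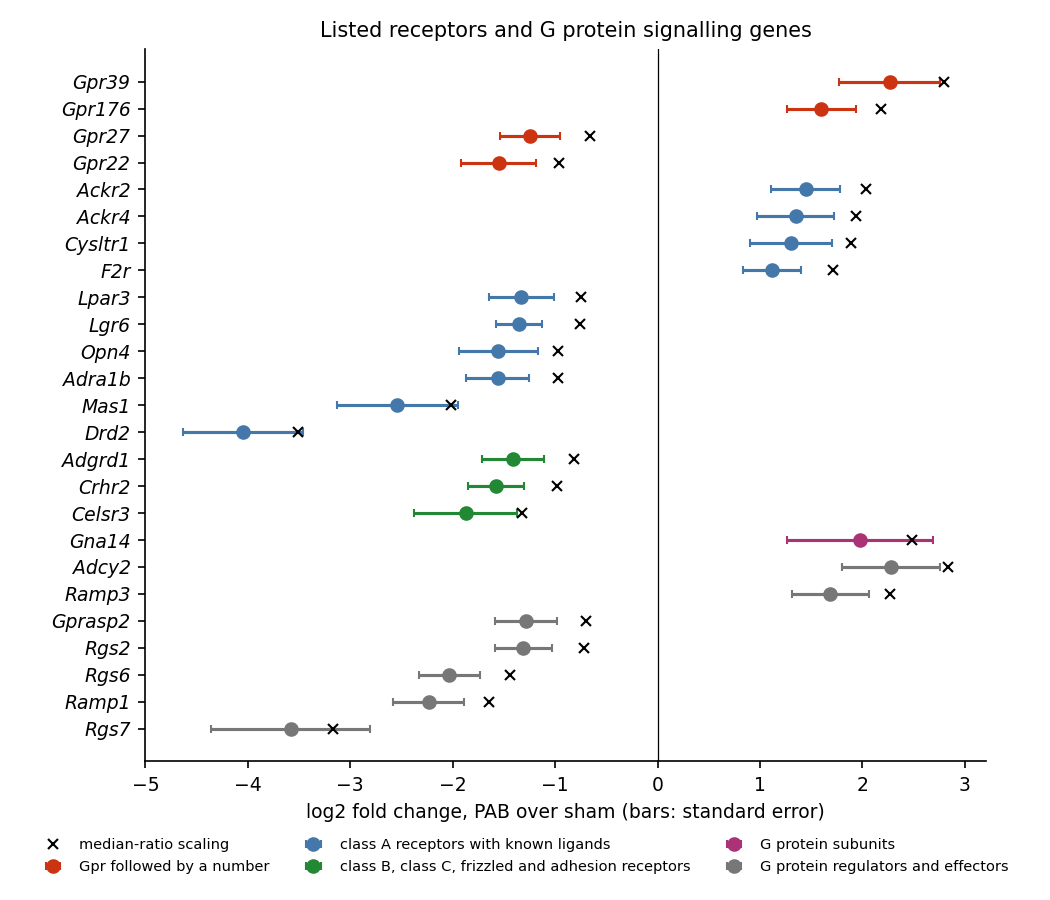
Log2 fold change of PAB over sham (points, with standard errors as bars) for the 4 Gpr genes, the other listed receptors and the listed G protein signalling genes, coloured by list, with crosses for median-ratio scaling. Gpr39 and Gpr176 lie to the right of 0 at 2.27 and 1.60 and Gpr27 and Gpr22 to the left at -1.25 and -1.55, and each cross lies further right than its point.

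The listed genes whose pattern was most like that of each receptor were found by Pearson correlation of log2(normalised read count + 1) over the 6 libraries, a description without a test, since the genes share the libraries, their scaling and the selection for a difference between the groups. For Gpr22, 9 of the other listed genes (1.46%) had a correlation of 0.95 or more. By rank, 10 genes had the same order of all 6 libraries as Gpr22, 24 as Gpr176, 11 as Gpr27 and 2 as Gpr39. The nearest were the homeobox gene Irx1 (0.982), the non-coding gene Gm47644 (0.978) and the splicing regulator Nova1 (0.973). Irx1 had 75.7, 78.6 and 124.8 normalised reads in sham replicates 1 to 3 and 41.5, 19.8 and 37.8 in PAB replicates 1 to 3, with its highest and lowest values in the same libraries as Gpr22. Pln shares 60.7% of the exonic bases of Gm47644 from the other strand, so the values of Gm47644 are uncertain.

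For Gpr27, 136 genes (22.1%) were at 0.95 or more. Cmss1 and the non-coding gene Gm10635 were among the nearest, each at 0.996. Gm10635 was listed at 0, 0.992 and 1.99 in the PAB libraries.

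For Gpr176, 103 genes (16.7%) reached 0.95. The nearest were Cyp1b1 (0.997), a cytochrome P450 enzyme, Rcan1 (0.996), an inhibitor of the phosphatase calcineurin, and Sprr1a (0.995). Cyp1b1 had 97.4, 84.2 and 76.6 normalised reads in sham replicates 1 to 3 and 471.8, 278.7 and 205.6 in PAB replicates 1 to 3, the order of Gpr176 in all 6 libraries. Rcan1 had 1573 to 1726 normalised reads in sham and 2579 to 3960 in PAB.

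For Gpr39, 43 genes (6.98%) reached 0.95. Its nearest gene was Kcne3 (0.999), an accessory subunit of potassium channels, followed by Sh3bgrl2 (0.995) and Rbp7 (0.987), a retinol-binding protein. Kcne3 had 42.6, 55.2 and 44.0 normalised reads in sham replicates 1 to 3 and 135.3, 140.8 and 113.2 in PAB replicates 1 to 3. Like Gpr39, it was highest in replicate 2 of both groups. Among the members, Gpr176 and Gpr39 had a correlation of 0.941 and Gpr22 and Gpr27 one of 0.847 over the 6 libraries.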

How the data were processed

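Total RNA of RV tissue was sequenced by the authors in 3 sham and 3 PAB libraries. The extraction text of the labels names a rat, whereas the organism label and the gene identifiers are of mouse. The submitters' processing notes name HISAT2 2.0.5, featureCounts 1.5.0-p3 and the build mm10, and the authors compared the groups with DESeq2. The deposited signal is called FPKM, but 100% of the values in each library lay within 0.01 of a whole multiple of 1 read, whatever the gene length, as read counts do after the authors divide them by a size factor. The deposited log2 fold changes and p-values are the authors' own comparison. They entered no result, and the fold changes served only to find the limit of the listing. Groups and replicate numbers came from the sample titles.

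The test was limma 3.58.1 under R 4.3.3, with lmFit and a trended eBayes on log2(value + 1), two-sided, without a replicate block. A gene needed a mean of 0.1, which removed none. P-values were adjusted by Benjamini-Hochberg over 617 genes, at a threshold of 0.05. The fit was tested on simulated data. Genes named are the Gpr genes, the 3 most correlated genes of each, and the listed members of lists of receptors, G protein signalling genes and cell type markers, all of them chosen with earlier results of these data known, and C1qa, named after its values were seen. The result for 1 of the correlated genes is not reported here. The promoter motifs were chosen after the data were examined. Alternatives changed the pseudocount to 0.1, the minimum mean to 1 or to none, the scaling to the median ratio, the variance model to one without a trend and the correlation to Spearman's, added the replicate block, or dropped 1 library at a time. Overlaps used GENCODE vM21 on GRCm38. Python 3.11.15 with numpy 2.4.6, pandas 2.3.3, scipy 1.17.1 and matplotlib 3.10.9 did the rest.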

Additional observations from a re-analysis of the deposited data

How the results depend on the processing

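Each of the 4 Gpr genes kept its direction under every alternative that was run, and Gpr22, Gpr176 and Gpr39 also kept their calls. Gpr27 lost its call with median-ratio scaling, with -0.66 as its log2 fold change (adjusted p = 0.0533 in limma). The same scaling, taken over genes that all had to differ, left 187 genes called lower in place of 327. When 1 library at a time was dropped, the log2 fold changes lay between -1.80 and -1.16 for Gpr22, -1.40 and -1.08 for Gpr27, 1.35 and 1.86 for Gpr176 and 2.12 and 2.47 for Gpr39, and the highest adjusted p in limma was 0.0163. The listed genes called then numbered 589 to 614, with 272 to 287 higher and 316 to 327 lower. As the filters removed no gene, they left the values as they were.

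Sham and PAB share replicate numbers. Deviations from the group mean, compared between libraries of the same number, had correlations across genes of -0.059, -0.055 and -0.199. These values show no pairing by number, but with 3 libraries per group they cannot exclude one. With the replicate block, limma called 616 genes and all 4 Gpr genes, with log2 fold changes of -1.55, -1.25, 1.60 and 2.27 as before. It changed no call among the 39 other named genes, among which C1qa is not counted. By Spearman correlation in place of Pearson, the nearest genes had 0.886 (Gpr22 with Irx1), 0.943 (Gpr27 with Cmss1), 1.00 (Gpr176 with Cyp1b1) and 1.00 (Gpr39 with Kcne3). Of the 39 other named genes, 8 lost their call with median-ratio scaling, 1 without PAB replicate 1 and 1 without sham replicate 1, and none was reversed. The planned edgeR test on whole reads was not run. The values of all libraries lay on whole multiples of 1 read, but 4 of the 6 libraries had fewer low values than the 100 required here before inferred reads were put into a count test. Precision is limited by 3 libraries per group and, for Gpr39, by an inferred 4 to 7 reads in sham.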
